A study of Bos taurus with 6 samples.

Results

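The genes described here encode the kinetochore and the spindle assembly checkpoint, together with the Aurora and Polo-like kinases that act with them. They were chosen by symbol in the gene table: CENPB to CENPZ, the BUB and MAD genes of the checkpoint, SPC24, SPC25, the AURK and PLK kinases, and NDC80, NUF2, KNL1, INCENP, BIRC5, CDCA8, TTK, CDC20, MIS12, DSN1, NSL1 and PMF1. The choice gave 47 genes of 47249. CENPA, the centromeric histone, falls outside the rule and is given with the partner genes, and PLK5 was not found under that symbol. The rule takes in 2 genes by name alone, CENPJ, a centriole protein, and MAD2L2, a subunit of a DNA repair polymerase.

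The data were FPKM values (sequenced fragments scaled by transcript length and by the size of the library) from testis RNA of untreated Wandong cattle (*Bos taurus*), a native breed. One group held 3 immature calves aged 3 ± 0.24 months and the other held 3 mature bulls aged 3 ± 0.014 years, with 1 library for each animal. Ribosomal RNA had been removed from total RNA and the libraries kept the strand. No allele, transgene or agent separates the groups, so age, and everything that changes with it in a testis, is what differs between them by the labels. Whole tissue was used, so fewer cells of a type and less RNA per cell cannot be told apart.

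The kinetochore is the protein plate that joins a chromosome to the microtubules of the spindle. Its inner part sits on centromeric chromatin, its outer part holds the microtubule, and the checkpoint delays anaphase until every chromosome is attached. In the testis the same machinery serves the mitotic divisions of spermatogonia and both meiotic divisions of spermatocytes, and most of its genes are transcribed mainly in dividing cells.

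The library labelled calf 3 stood apart from the other calves in ways its label does not give. Defining markers of Leydig cells were at or near 0 in it, with a summed level of 0.502 FPKM over 9 entries, 5 of them at 0, against 1143 to 2755 FPKM in the other 5 libraries. Of 11 Sertoli cell markers, WT1, GATA4 and FSHR were at 0 in it, while CLDN11 at 429 FPKM and CLU at 423 FPKM made up most of a sum of 869 FPKM. CLDN11 is also listed as an oligodendrocyte marker, so its level counts in both the Sertoli and the oligodendrocyte sum. The Sertoli sum was 2896 and 2786 FPKM in calves 1 and 2 and 452 to 481 FPKM in the bulls. The 8 oligodendrocyte markers summed to 13641 FPKM in calf 3 and to between 29.6 and 104 FPKM elsewhere, the 5 astrocyte markers to 1787 against 6.70 to 8.07 FPKM, and the 7 neuron markers to 775 against 3.51 to 9.003 FPKM. Group counts and medians and the calls of the named genes are therefore given with calf 3 and without it.

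Of the 47 genes, 33 were higher in the bulls, 1 was lower and 13 did not pass. A gene passed when the adjusted p of limma was under 0.05 and the log2 fold change was at least 1 on the scale of FPKM + 1. The genes that rose make up 70.2% of these genes, and 35.7% of all 18115 genes tested rose by the same rule. The 1 gene that fell was CENPB, and 9.61% of all genes tested fell. The median log2 fold change was 1.85 over the 47 genes and 0.43 over all genes tested. All 47 passed the filter on low values, which asked for 1 FPKM in 3 of the 6 libraries. None passed it through the bulls alone, but PLK3 passed it through the calves alone.

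Without calf 3, 30 genes rose, 1 fell and 16 did not pass, beside 37.9% of all genes that rose and 13.6% that fell. The median was then 1.52 over the 47 genes and 0.43 over all. The genes whose call was lost were CENPM, NDC80 and CENPE, and each came to a log2 fold change under 1 with an adjusted p of 0.000829, 0.00279 and 0.00503, respectively. The scaling of the libraries also bears on the counts. After quantile normalization the median of all genes moved to −0.26, and 26 of the 47 genes rose beside 21.1% of all genes, while 3 fell beside 25.1%. With quantile normalization and without calf 3, 23 rose beside 22.4% of all genes and 5 fell beside 29.1%, with a median of 0.97 over the 47 genes. The 3 called lower after quantile normalization were CENPB, CENPI and PLK3, and NSL1 (−1.15) and PLK2 (−1.05) joined them without calf 3. Both counts include PLK3, whose call is not read as a fall because it passed the filter through the calves alone.

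The bulls lay above all 3 calves in 40 of the 47 genes, which was so for 46.1% of all genes tested. They lay below all calves in CENPB, CENPI, NSL1 and PLK3, and 21.3% of all genes did so. For PLK3, which passed the filter through the calves alone, this place was fixed by the filter. The groups overlapped in MIS12, MAD2L1BP and PLK2. Without calf 3 the bulls were above in 40 genes, beside 53.5% of all genes, and below in 5, beside 30.9%, PLK2 being the added gene.

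**Figure D1:**
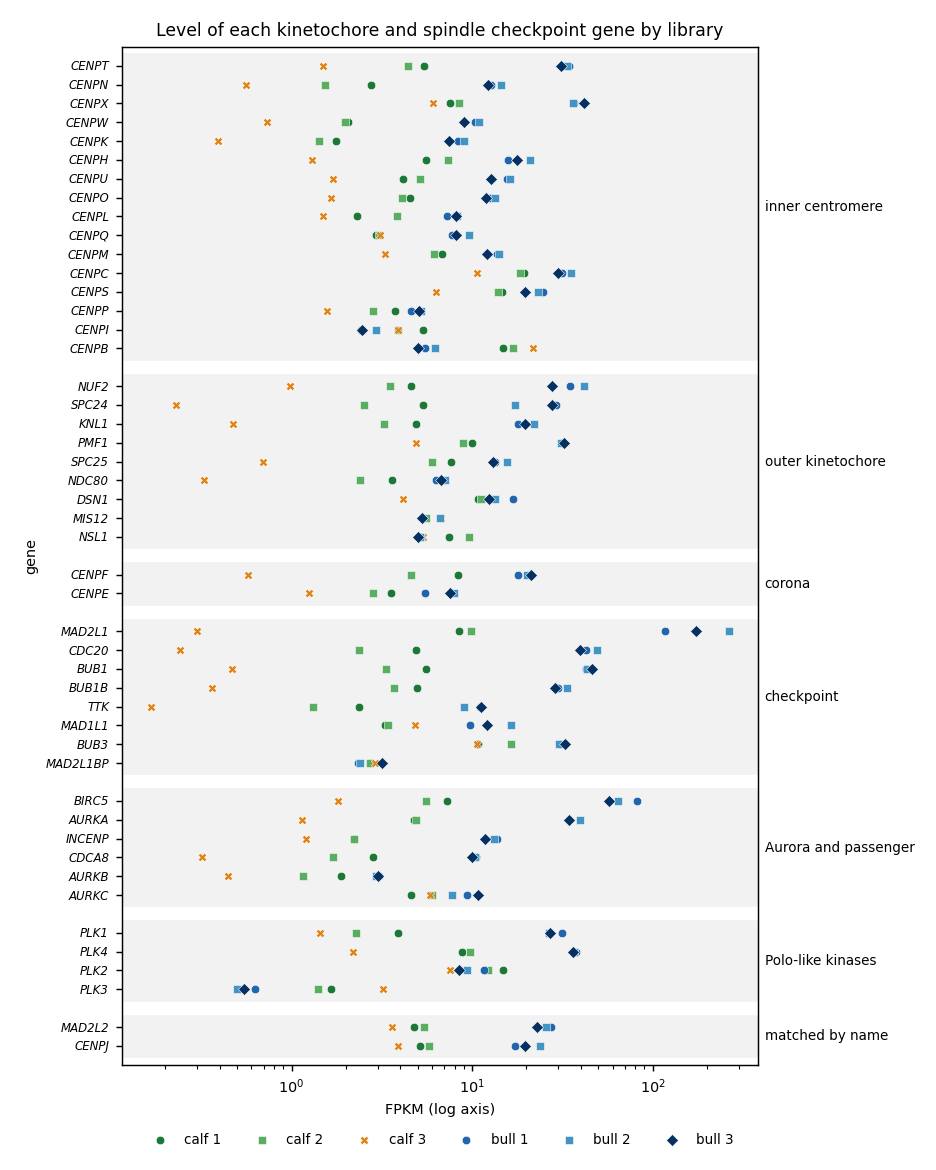
FPKM of each of the 47 genes (rows, grouped by role) in each of the 6 libraries, on a log axis, 1 point per library with no averaging. The bulls (blue) lie to the right of all calves in 40 rows, and calf 3 (orange crosses) is the lowest calf in 40 rows.

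Summed over the 47 genes, the level was 281, 265 and 144 FPKM in calves 1 to 3 and 995, 1159 and 1004 FPKM in bulls 1 to 3. As a share of the FPKM of all genes tested these sums were 0.0265%, 0.0242% and 0.0254% in the calves and 0.129%, 0.152% and 0.139% in the bulls. The median gene stood at 4.89, 4.10 and 1.57 FPKM in the calves and at 13.8, 15.5 and 12.4 FPKM in the bulls. Calf 3 was the lowest calf in 40 of the 47 genes, or 85.1%, and in 46.7% of all genes tested, and 31 of the 47 reached 1 FPKM in it against all 47 in both other calves. Its level relative to the mean of calves 1 and 2 had a median of 0.381 over the 47 genes and 0.862 over all genes tested.

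The order of the genes differed between the ages. In the bulls MAD2L1 had the highest mean, followed by BIRC5, BUB1, CDC20 and CENPX. BUB1 at 42.5 to 46.1 FPKM and CDC20 at 39.5 to 49.0 FPKM overlapped, so their order is not set by these libraries. Nor is the place of CENPX, which at 36.4 to 41.9 FPKM overlapped CDC20, PLK4, AURKA and NUF2. In calves 1 and 2 the highest means were those of CENPC, CENPB, CENPS, BUB3 and PLK2, and MAD2L1 came at place 9. There BUB3 at 10.8 and 16.4 FPKM overlapped CENPB, CENPS and PLK2. MAD2L1 at 8.43 and 9.86 FPKM overlapped PMF1 and PLK4, so the places of BUB3 and MAD2L1 are not set either. The 3 bulls lay close to each other, with the highest value less than 1.5 times the lowest in 44 genes. SPC24, MAD1L1 and MAD2L1 were the exceptions.

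Of the 8 checkpoint genes 7 rose, with and without calf 3, or 87.5% beside 35.7% of all genes (37.9% without calf 3). The median log2 fold change of the group was 2.84, and 2.30 without calf 3. MAD2L1 encodes MAD2, the protein that binds and holds back CDC20 while chromosomes are unattached. Its level was 8.43, 9.86 and 0.298 FPKM in calves 1 to 3 and 118, 266 and 175 FPKM in bulls 1 to 3. The bull mean was 20.4 times that of calves 1 and 2, and the log2 fold change was 5.12 ± 0.86 (SE, adjusted p = 0.0032), or 4.13 ± 0.32 without calf 3 (adjusted p = 7.66e-05). The annotated transcript MAD2L1-201 was at most 0.122 FPKM in any library. The level of the gene came from assembled transcripts on an unplaced scaffold, antisense ones included, which are described below. The bulls differed among themselves more in this gene than in most others, yet none came near a calf. MAD2L1 made up 3.00%, 3.72% and 0.207% of the summed level of the 47 genes in the calves and 11.9%, 22.9% and 17.4% in the bulls. Without it the sums were 273, 255 and 144 FPKM in the calves and 877, 894 and 829 FPKM in the bulls.

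CDC20, the activator of the anaphase-promoting complex and the target of the checkpoint, lies on chromosome 3 at 102655232 to 102659704. It was at 4.89, 2.36 and 0.242 FPKM in the calves and at 42.5, 49.0 and 39.5 FPKM in the bulls. The log2 fold change was 3.94 ± 0.56 (adjusted p = 0.00153), and 3.32 ± 0.25 without calf 3. BUB1, a kinase that marks the inner centromere through histone H2A, lies on chromosome 11 at 1585412 to 1618575. It was at 5.58, 3.32 and 0.467 FPKM in the calves and at 42.5, 43.6 and 46.1 FPKM in the bulls, which spread less than the calves. Its log2 fold change was 3.70 ± 0.55 (adjusted p = 0.00179), and 3.08 without calf 3. BUB1B, which encodes the checkpoint protein BUBR1, was at 4.96, 3.71 and 0.364 FPKM in the calves and at 30.1, 33.4 and 28.6 FPKM in the bulls. The log2 fold change of BUB1B was 3.23 ± 0.56 (adjusted p = 0.00356), and 2.58 without calf 3.

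The remaining checkpoint genes changed less. TTK, the kinase MPS1 that starts checkpoint signalling, rose by 2.44 on the log2 scale, from 2.37, 1.31 and 0.166 FPKM in the calves to 11.04, 8.97 and 11.2 FPKM in the bulls, and by 2.02 without calf 3. MAD1L1, which encodes the MAD1 partner of MAD2, was at 3.30, 3.42 and 4.82 FPKM in the calves and at 9.80, 16.4 and 12.1 FPKM in the bulls, with a log2 fold change of 1.49 (adjusted p = 0.00283), and 1.63 without calf 3. It was one of the 6 genes in which calf 3 was the highest calf. BUB3, the small adaptor of BUB1 and BUBR1, was at 10.8, 16.4 and 10.7 FPKM in the calves and at 30.6, 30.5 and 32.6 FPKM in the bulls. The log2 fold change of BUB3 was 1.27 ± 0.20 (adjusted p = 0.00239), and 1.17 without calf 3. Neither BUB3 nor MAD1L1 was called after quantile normalization, where their log2 fold changes were 0.60 and 0.98. MAD2L1BP, the protein p31comet that takes MAD2 out of its active complex, did not pass. It was at 2.73, 2.73 and 2.91 FPKM in the calves and at 2.32, 2.39 and 3.16 FPKM in the bulls, with a log2 fold change of −0.07 ± 0.17 (adjusted p = 0.733), and −0.05 without calf 3. The bulls lay on either side of the calves.

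Of the 9 outer kinetochore genes 5 rose, or 55.6% beside 35.7% of all genes, and 4 did so without calf 3, beside 37.9%. For the group the median log2 fold change was 1.67, but 0.96 without calf 3 and 0.44 with quantile normalization as well. The NDC80 complex is the microtubule-binding rod of the kinetochore, and its 4 subunits stood at unlike levels. NUF2, on chromosome 3 at 5960360 to 5998691, was at 4.58, 3.51 and 0.985 FPKM in the calves and at 35.0, 41.6 and 27.8 FPKM in the bulls. For NUF2 the log2 fold change was 3.26 ± 0.42 (adjusted p = 0.000981), and 2.82 without calf 3. NDC80, its direct partner at the same end of the rod, was at 3.60, 2.40 and 0.329 FPKM in the calves and at 6.28, 7.12 and 6.75 FPKM in the bulls. Its log2 fold change was 1.49 ± 0.47 (adjusted p = 0.0361), and 0.96 without calf 3. The call of NDC80 was also lost without calf 2 and without any single bull, with adjusted p from 0.0588 to 0.106. In all it was lost in 11 of 15 other settings. Among these were a pseudocount of 0.1, no filter on low values, median ratio scaling, quantile normalization and array weights.

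SPC24 and SPC25 form the inner end of the rod. SPC24 was at 5.31, 2.51 and 0.228 FPKM in the calves and at 29.02, 17.2 and 27.7 FPKM in the bulls, a log2 fold change of 3.06 ± 0.61 (adjusted p = 0.0066), and of 2.41 without calf 3. SPC25 was at 7.69, 6.03 and 0.692 FPKM in the calves and at 13.4, 15.5 and 13.1 FPKM in the bulls. All bulls were above all calves in SPC25, but the log2 fold change of 1.67 ± 0.63 did not pass (adjusted p = 0.0639), and it was 0.94 without calf 3. Without calf 1 it was called, at 2.12.

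The MIS12 complex, which joins the inner to the outer kinetochore, was uneven as well. PMF1 was at 9.97, 8.88 and 4.88 FPKM in the calves and at 31.3, 31.1 and 32.5 FPKM in the bulls. It rose by 1.92 on the log2 scale (adjusted p = 0.00127), and by 1.65 without calf 3. None of its 3 partners passed. MIS12 was at 5.44, 5.56 and 6.70 FPKM in the calves and at 5.26, 6.60 and 5.31 FPKM in the bulls, with a log2 fold change of −0.04 ± 0.18 and, without calf 3, of 0.04 ± 0.15. NSL1 was at 7.43, 9.58 and 5.35 FPKM against 5.23, 5.15 and 5.02 FPKM, with the bulls just below the lowest calf and a log2 fold change of −0.43 (adjusted p = 0.156). Without calf 3 that of NSL1 was −0.62 (adjusted p = 0.00883), short of the fold required, and it was called lower only with quantile normalization added (−1.15, adjusted p = 0.000729). DSN1 was at 10.9, 11.2 and 4.13 FPKM against 17.0, 13.3 and 12.4 FPKM (log2 fold change 0.74, adjusted p = 0.143, and 0.33 without calf 3). KNL1, the scaffold on which BUB proteins assemble, was at 4.89, 3.23 and 0.472 FPKM in the calves and at 18.0, 22.2 and 19.7 FPKM in the bulls. It rose by 2.65 on the log2 scale (adjusted p = 0.00596), and by 2.06 without calf 3.

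The fibrous corona is the outermost layer, which catches microtubules early. CENPF, a large coiled-coil protein of this layer, was at 8.32, 4.57 and 0.575 FPKM in the calves and at 18.1, 20.1 and 21.1 FPKM in the bulls. For CENPF the log2 fold change was 2.25 ± 0.64 (adjusted p = 0.0255), and 1.52 ± 0.23 without calf 3 (adjusted p = 0.00119). Leaving out any single bull took the adjusted p of CENPF to between 0.075 and 0.0845. CENPE, a kinesin motor that moves chromosomes to the spindle equator, was at 3.56, 2.83 and 1.25 FPKM in the calves and at 5.52, 7.98 and 7.53 FPKM in the bulls. Its log2 fold change was 1.22 ± 0.31 (adjusted p = 0.0176). It was not called without calf 3 (0.93), without bull 2 (adjusted p = 0.0688) or without bull 3 (adjusted p = 0.0663). Nor was it called after quantile normalization (0.64) or with array weights.

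Of the 16 inner centromere genes 11 rose and 1 fell, or 68.8% that rose beside 35.7% of all genes, and without calf 3 10 rose and 1 fell. The median log2 fold change was 1.54, and 1.303 without calf 3. CENPT, which reaches from centromeric DNA to the NDC80 complex, was at 5.45, 4.40 and 1.49 FPKM in the calves and at 34.4, 33.8 and 30.9 FPKM in the bulls. It lies on chromosome 18 at 35338638 to 35344538, and its log2 fold change was 2.94 ± 0.37 (adjusted p = 0.000932), or 2.53 without calf 3. CENPW, its histone-fold partner, was at 2.05, 1.97 and 0.728 FPKM against 10.4, 10.9 and 9.06 FPKM, a log2 fold change of 2.15 (adjusted p = 0.000929). CENPN, which reads the CENPA nucleosome, was at 2.77, 1.54 and 0.560 FPKM against 12.8, 14.5 and 12.3 FPKM, with a log2 fold change of 2.52 (adjusted p = 0.00123). CENPX, a small histone-fold protein that also serves DNA repair, was at 7.52, 8.42 and 6.11 FPKM against 36.7, 36.4 and 41.9 FPKM. The calves lay close together in CENPX, calf 3 included, and its log2 fold change was 2.24 ± 0.17 (adjusted p = 0.00011). Without calf 3 the values of CENPW, CENPN and CENPX were 1.88, 2.20 and 2.13. In all 4 genes the lowest bull was well above the highest calf.

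CENPK, CENPH, CENPU, CENPO, CENPL, CENPQ and CENPM, subunits of the constitutive network that lies on centromeric chromatin throughout the cycle, rose with log2 fold changes from 1.19 in CENPM to 2.14 in CENPK, and from 0.93 to 1.84 in the same genes without calf 3. After quantile normalization CENPL (0.81), CENPQ (0.71) and CENPM (0.66) were not called, and with that and without calf 3 neither were CENPO (0.85), CENPU (0.97) and CENPH (0.81). The calls of CENPM and CENPH were lost when single libraries were left out. CENPM was at 6.84, 6.18 and 3.29 FPKM in the calves and at 13.7, 14.1 and 12.03 FPKM in the bulls, and its log2 fold change fell to 0.93 without calf 3. CENPH was at 5.58, 7.35 and 1.296 FPKM against 15.9, 20.9 and 17.7 FPKM (log2 fold change 1.93, adjusted p = 0.0178, and 1.36 without calf 3). Leaving out any 1 bull took the adjusted p of CENPH to between 0.054 and 0.0686. CENPC, the main link from the CENPA nucleosome to the MIS12 complex, was at 19.3, 18.4 and 10.7 FPKM in the calves and at 31.7, 35.5 and 29.8 FPKM in the bulls. With a log2 fold change of 0.999 (adjusted p = 0.0162) it missed the required fold narrowly, and it was 0.74 without calf 3. It was called without calf 1 (1.14), calf 2 (1.11) or bull 3 (1.05). CENPS and CENPP did not pass either, at 0.97 and 0.73, or 0.62 and 0.49 without calf 3, although CENPS was called without calf 1 (1.16).

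CENPB and CENPI went the other way. CENPB binds a short motif in centromeric satellite DNA, and its gene lies on chromosome 13 at 51417094 to 51419830. It was at 14.8, 16.8 and 21.9 FPKM in the calves and at 5.48, 6.20 and 5.04 FPKM in the bulls. It decreased by 1.51 ± 0.20 on the log2 scale (adjusted p = 0.00103), and by 1.36 without calf 3 (adjusted p = 0.00022). The call held under all 15 other settings in which CENPB was recomputed. CENPI, a subunit of the same subcomplex as CENPH and CENPK, was at 5.33, 3.897 and 3.87 FPKM in the calves and at 2.41, 2.95 and 2.45 FPKM in the bulls. Its log2 fold change was −0.57 ± 0.19 (adjusted p = 0.0432), short of the fold required, and −0.63 without calf 3. It was called after quantile normalization at −1.26. CENPI is the only one of the 47 genes on the X chromosome, at 50994358 to 51062479. Of the 664 X-linked genes tested, 30.3% were called lower and 22.7% higher, and of the 17173 autosomal genes 8.92% were called lower and 36.0% higher. Without calf 3 the shares called lower were 31.5% and 13%, respectively. Whether the place of CENPI on the X bears on its values was not tested.

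**Figure D2:**
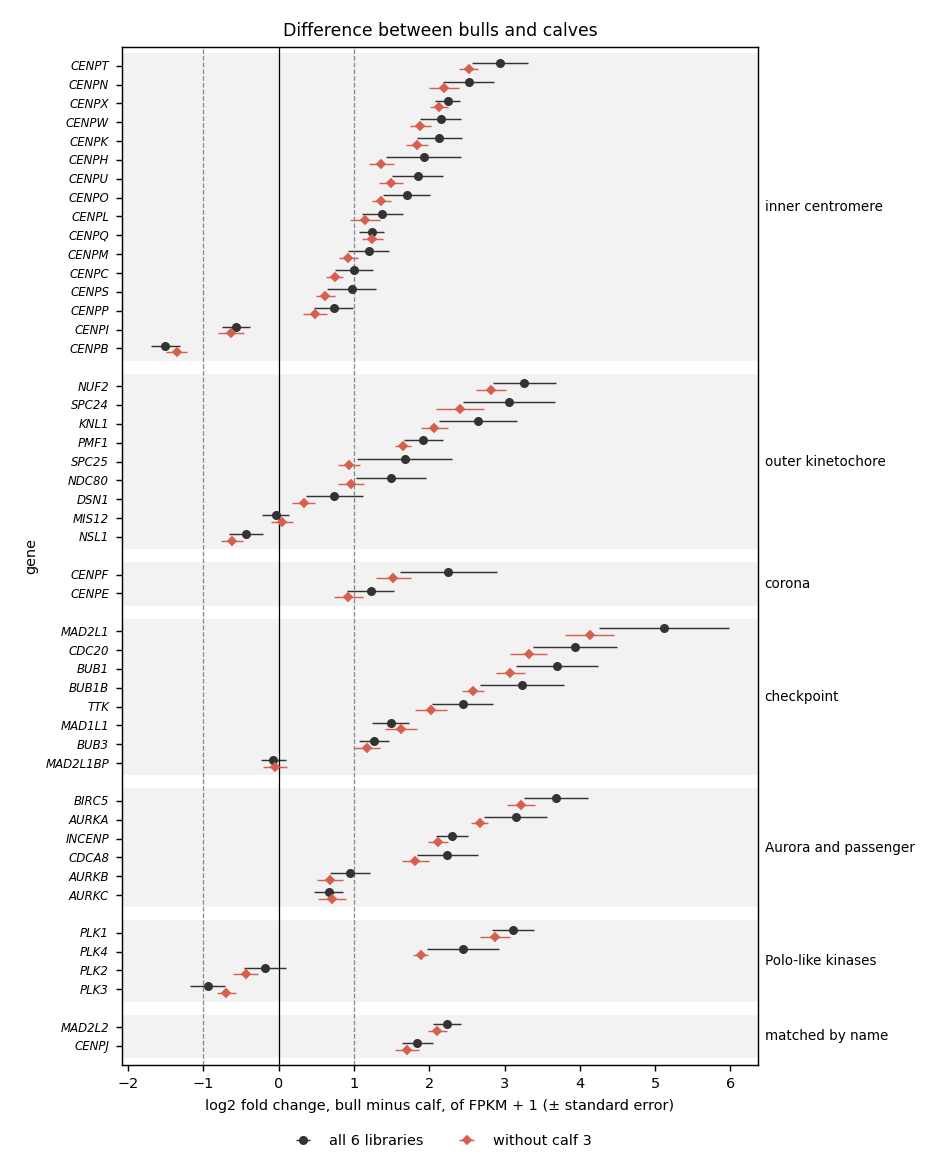
Log2 fold change of FPKM + 1 (bull minus calf, ± standard error from limma) of each of the 47 genes, with all 6 libraries (black circles) and without calf 3 (red diamonds). The dashed lines mark the fold of 2 that a call required, and CENPB is the only gene left of the lower line, while the highest value is that of MAD2L1 (5.12).

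Of the 6 genes of the Aurora kinases and the passenger complex 4 rose, with and without calf 3, or 66.7% beside 35.7% of all genes. The median log2 fold change was 2.27, and 1.97 without calf 3. The chromosomal passenger complex corrects wrong attachments and guides cell division, and consists of an Aurora kinase with INCENP, survivin and borealin. BIRC5, the gene of survivin, was at 7.24, 5.59 and 1.81 FPKM in the calves and at 82.1, 64.7 and 57.6 FPKM in the bulls. It lies on chromosome 19 at 53940667 to 53947960, and its log2 fold change was 3.68 ± 0.43 (adjusted p = 0.000639), or 3.21 without calf 3. INCENP, the scaffold of the complex, was at 2.21, 2.22 and 1.20 FPKM against 13.8, 13.3 and 11.9 FPKM, a log2 fold change of 2.30 (adjusted p = 0.000273). CDCA8, the gene of borealin, was at 2.82, 1.71 and 0.318 FPKM against 10.5, 10.4 and 9.97 FPKM, a log2 fold change of 2.24 (adjusted p = 0.00406). Without calf 3 the values of INCENP and CDCA8 were 2.12 and 1.81. In these 3 genes the bulls stood several times above every calf.

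The 3 Aurora kinases did not share this size of difference. AURKA, which acts at spindle poles, was at 4.79, 4.90 and 1.15 FPKM in the calves and at 34.6, 39.7 and 34.4 FPKM in the bulls. It rose by 3.15 ± 0.42 on the log2 scale (adjusted p = 0.00116), and by 2.67 ± 0.12 without calf 3. AURKB, the usual kinase of the passenger complex, was at 1.87, 1.16 and 0.444 FPKM in the calves and at 3.05, 2.92 and 3.00 FPKM in the bulls. The log2 fold change of AURKB was 0.94 ± 0.27 (adjusted p = 0.0252), under the fold required, and 0.68 without calf 3. AURKB was called without calf 1 (1.18) and with a pseudocount of 0.1 (1.48). AURKC, the paralog known for its use in germ cells, was at 4.57, 5.98 and 5.85 FPKM in the calves and at 9.32, 7.76 and 10.7 FPKM in the bulls. Its log2 fold change was 0.67 ± 0.19 (adjusted p = 0.0278), and 0.71 ± 0.18 without calf 3. All bulls were above all calves in each of the 3 kinases, and in calf 3 AURKC was at the level of calf 2.

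Of the 4 Polo-like kinases PLK1 and PLK4 rose, with and without calf 3, or 50% beside 35.7% of all genes (37.9% without calf 3). Over the 4 the median log2 fold change was 1.13, but 0.72 without calf 3. PLK1, which works at centrosomes, kinetochores and the midbody, was at 3.89, 2.28 and 1.44 FPKM in the calves and at 31.6, 26.5 and 27.0 FPKM in the bulls. It lies on chromosome 25 at 21334598 to 21345432, and its log2 fold change was 3.11 ± 0.28 (adjusted p = 0.000234), or 2.87 without calf 3. PLK4, the kinase that starts centriole duplication, was at 8.81, 9.79 and 2.18 FPKM against 37.9, 36.6 and 36.4 FPKM, a log2 fold change of 2.45 (adjusted p = 0.00608), and of 1.88 without calf 3. PLK2 and PLK3, known mostly as stress-induced kinases, did not pass. PLK2 was at 14.8, 12.3 and 7.52 FPKM against 11.6, 9.32 and 8.43 FPKM, with the groups overlapping through calf 3 (log2 fold change −0.18, adjusted p = 0.6, and −0.44 without calf 3). PLK3 was at 1.65, 1.40 and 3.21 FPKM in the calves and at 0.631, 0.501 and 0.544 FPKM in the bulls, with a log2 fold change of −0.94 ± 0.23 (adjusted p = 0.0148), and −0.69 without calf 3. The bulls were below every calf in PLK3. It was called lower after quantile normalization (−1.57) and without calf 1 (−1.03) or calf 2 (−1.10). PLK3 passed the filter on low values through the calves alone, so it could hardly come out otherwise than lower. Its p-value and calls are therefore not read as a fall.

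Both genes that the rule took in by name rose. MAD2L2 was at 4.78, 5.39 and 3.62 FPKM in the calves and at 27.2, 25.8 and 22.8 FPKM in the bulls, a log2 fold change of 2.24 ± 0.18 (adjusted p = 0.000158). CENPJ was at 5.12, 5.81 and 3.88 FPKM against 17.3, 23.8 and 19.5 FPKM, a log2 fold change of 1.84 ± 0.21 (adjusted p = 0.00056). Without calf 3 the values were 2.11 and 1.70.

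Ratios of partner genes within a library are not changed by a scaling factor applied to the whole library, though quantile normalization can change them. For 24 pairs they were compared between the groups with a two-sided exact permutation test, whose smallest possible p with 3 libraries against 3 is 0.1. The groups did not overlap in 22 pairs, each with an exact p of 0.1 (0.109 after Benjamini-Hochberg adjustment over the 24), so no pair could pass. Over all pairs of the 15607 genes that were tested and above 0 in every library, the groups did not overlap in 62.9%. The pairs were chosen with the levels of these genes known. The ratio of NUF2 to NDC80 was 1.27, 1.47 and 2.99 in the calves and 5.57, 5.84 and 4.12 in the bulls. SPC24 stood to SPC25 as 0.691, 0.417 and 0.330 in the calves and as 2.17, 1.11 and 2.12 in the bulls. By FPKM the highest of the 4 subunits was SPC25 in calves 1 and 2 and NUF2 in the bulls, and NUF2 and SPC24 stood almost level in bull 3.

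In the MIS12 complex PMF1 relative to NSL1 was 1.34, 0.927 and 0.912 in the calves and 5.99, 6.04 and 6.47 in the bulls. CENPT relative to CENPC, the other route to the outer kinetochore, was 0.282, 0.239 and 0.140 in the calves and 1.09, 0.953 and 1.04 in the bulls, so that both links stood at about equal FPKM only in the bulls. CENPI relative to CENPH was 0.955, 0.530 and 2.99 in the calves and 0.152, 0.141 and 0.138 in the bulls. The last ratio spread little among the bulls and widely among the calves.

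The checkpoint pairs were uneven too. BUB1 relative to BUB3 was 0.518, 0.203 and 0.0436 in the calves and 1.39, 1.43 and 1.41 in the bulls. MAD2L1 relative to MAD1L1 was 2.55, 2.88 and 0.062 in the calves and 12.03, 16.2 and 14.5 in the bulls. In calf 3 alone MAD2L1BP exceeded MAD2L1, at a ratio of 9.76, against 0.324 and 0.277 in the other calves and 0.00897 to 0.0197 in the bulls. MAD2L1 relative to CDC20 overlapped between the groups, at 1.72, 4.17 and 1.23 against 2.77, 5.43 and 4.43 (exact permutation p = 0.2).

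Among the kinases AURKA relative to AURKC was 1.05, 0.820 and 0.196 in the calves and 3.71, 5.12 and 3.20 in the bulls. AURKC relative to AURKB overlapped, at 2.44, 5.16 and 13.2 against 3.05, 2.66 and 3.58 (exact permutation p = 0.4). AURKC was thus the more abundant of both paralogs in every library. PLK1 relative to PLK2 was 0.263, 0.185 and 0.191 in the calves and 2.73, 2.85 and 3.21 in the bulls, and calf 3 lay within the other calves for this pair.

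**Figure D3:**
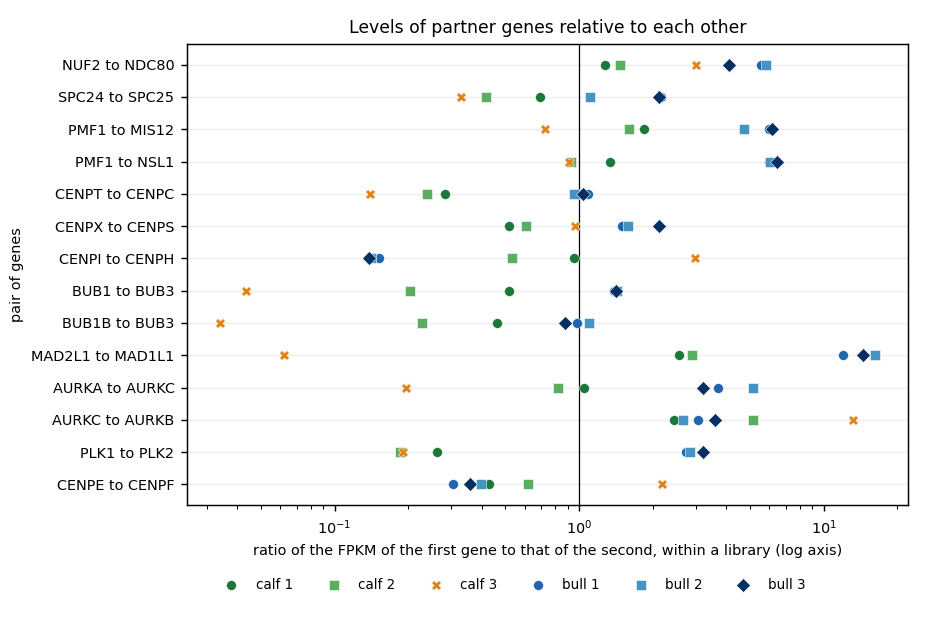
Ratio of FPKM of 14 of the 24 pairs of partner genes within each library, on a log axis, 1 point per library, with a line at equal levels. The bulls (blue) lie apart from the calves in all pairs shown but AURKC to AURKB, and calf 3 (orange crosses) often lies far from the other calves, as for MAD2L1 to MAD1L1 (0.062).

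The gene level of each of the 47 genes equalled the sum of its transcripts in every library (tolerance 0.001 FPKM), so the transcript table shows what each gene level is made of. It lists 108 transcripts for these genes, 66 of the Ensembl annotation and 42 that were assembled from the reads, named TCONS, and 7 of the 108 are named as antisense. Of the 69 transcripts tested, 47 rose, beside 34.8% of all 23212 transcripts tested, and 1 fell, CENPB-201, beside 9.37%. Without calf 3, 43 rose beside 36.1% and 1 fell beside 13.1%. The calls lost were CENPM-201, NDC80-201 and, in MAD2L1, TCONS_00375338 and TCONS_00375341. Of the 69, 12 reached 1 FPKM in no calf and so passed the filter through the bulls alone. They could hardly come out otherwise than higher, 11 of them were called, and the remaining 57 gave 36 of the calls. No gene had transcripts called in opposite directions. In 5 genes a transcript rose next to another tested one of at least 1 FPKM on average that did not pass, namely CENPC, CENPE, CENPL, CENPO and MAD2L1. CENPL is among them only through a transcript that passed the filter through the bulls alone, so its contrast is not read as a result.

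For CENPO, a subunit of the centromere network, CENPO-201 was at 1.53, 1.28 and 0.248 FPKM in the calves and at 8.31, 9.23 and 8.24 FPKM in the bulls (log2 fold change 2.31, adjusted p = 0.00132). The assembled TCONS_00049908 was at 2.81, 2.73 and 1.18 FPKM against 3.88, 3.58 and 3.38 FPKM (0.55, adjusted p = 0.139). Without calf 3 these values were 1.996 and 0.29. The assembled form was thus the more abundant in the calves and CENPO-201 in the bulls. In CENPL the assembled TCONS_00112782 was at 0.379, 0.115 and 0.0353 FPKM against 3.99, 4.42 and 3.36 FPKM, and passed the filter through the bulls alone. CENPL-201 was at 1.02, 3.48 and 0.724 FPKM against 1.44, 2.08 and 2.47 FPKM, with overlapping groups (0.25, adjusted p = 0.628, and −0.02 without calf 3).

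CENPC-201 rose by 1.55 on the log2 scale (adjusted p = 0.0105), from 5.53, 6.502 and 2.20 FPKM to 14.9, 15.1 and 14.4 FPKM, although the gene as a whole missed the required fold. The larger part of its level, TCONS_00320606, was at 13.8, 11.9 and 8.46 FPKM against 16.8, 20.4 and 15.4 FPKM (0.60, adjusted p = 0.0694). Without calf 3 they were at 1.17 and 0.41. CENPE-202 was at 2.20, 0.481 and 0 FPKM against 3.76, 4.85 and 3.82 FPKM (1.61, adjusted p = 0.0231), and CENPE-201 at 1.08, 2.30 and 0.558 FPKM against 1.57, 2.66 and 2.57 FPKM (0.55, adjusted p = 0.201). Without calf 3 they were at 1.23 and 0.30.

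MAD2L1 lies on the unplaced scaffold NKLS02000723.1 in these files and has 12 entries, most of which share the same start. Of the 47 genes, 46 overlapped the RefSeq locus of the same symbol and MAD2L1 did not. The annotated transcript MAD2L1-201 was at most 0.122 FPKM in any library, and its level came from assembled transcripts. TCONS_00375344 was at 0.171, 0.228 and 0 FPKM in the calves and at 26.6, 177 and 131 FPKM in the bulls, which is 22.5%, 66.5% and 75.0% of the gene in the bulls. In bull 1 the highest was another, TCONS_00375336, at 36.9 FPKM against 2.25 and 1.22 FPKM in bulls 2 and 3 and 1.69, 1.89 and 0.0017 FPKM in the calves, and it did not pass (1.71, adjusted p = 0.252). The bulls were thus alike in having a high gene level and unlike in its parts. The antisense MAD2L1-AS2 was at 0.12, 0 and 0 FPKM against 4.29, 6.0002 and 4.84 FPKM, and it counts in the gene level. Both it and TCONS_00375344 passed the filter through the bulls alone, so no test of them is given.

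The next transcripts were singled out after their values were seen. In SPC24 the annotated SPC24-201 was at 3.48 and 1.55 FPKM in calves 1 and 2 and listed at 0 in calf 3 and every bull. The assembled TCONS_00334634 was listed at 0 in calves 1 and 2, at 0.228 FPKM in calf 3 and at 24.8, 14.2 and 20.7 FPKM in the bulls, through which alone it passed the filter. The third, TCONS_00334632, was at 1.83, 0.965 and 0 FPKM against 4.20, 3.02 and 6.96 FPKM. SPC24-201 and TCONS_00334634 lie on chromosome 7 from 15587514, and end at 15594237 and 15594244. SPC24-201 did not pass the filter on low values and was not tested.

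PMF1-201 was at 9.84, 8.77 and 0.336 FPKM in the calves and at 31.3, 31.1 and 32.4 FPKM in the bulls (2.64, adjusted p = 0.0358, and 1.66 without calf 3). In calf 3 the assembled TCONS_00266774 made up 93.1% of PMF1 at 4.54 FPKM, and it did not exceed 0.134 FPKM in any other library. CENPJ-204 was at 3.06 FPKM in calf 3, 78.7% of the gene there, and at 0 in every other library. PLK1-202 was at 0 in every calf and at 1.63, 1.69 and 1.45 FPKM in the bulls, beside PLK1-201 at 30.01, 24.9 and 25.6 FPKM. AURKC-201 was at 1.91, 3.12 and 2.70 FPKM against 6.07, 4.74 and 7.15 FPKM, and AURKC-202 at 2.66, 2.86 and 3.14 FPKM against 3.25, 3.02 and 3.59 FPKM, and neither passed (0.97 and 0.14, or 0.9999 and 0.19 without calf 3). How an assembler divides reads among transcripts that share most of their exons is uncertain, and its part in these values was not tested.

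**Figure D4:**
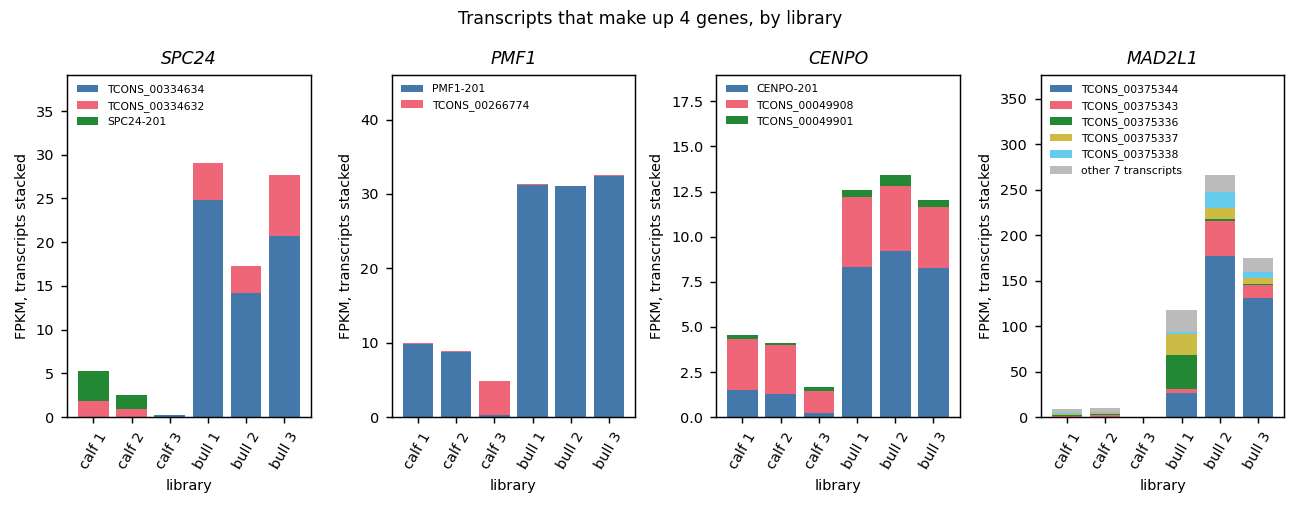
FPKM of the transcripts of SPC24, PMF1, CENPO and MAD2L1, stacked so that each bar is the gene level in 1 library, with no averaging. In SPC24 the annotated transcript (green) is seen only in calves 1 and 2, in PMF1 calf 3 holds another transcript than the rest, and in MAD2L1 bull 1 differs in make-up from bulls 2 and 3.

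The other genes of the pathway were listed by function, but with earlier results of these data known. Of 75 symbols 73 were found, all were tested, and 41 rose and none fell in limma, while 3 were lower at an unadjusted p under 0.05 (NEK7, NUMA1 and TACC2). Without calf 3, 42 rose and none fell, with 5 lower at an unadjusted p under 0.05. The genes that rose were 56.2% of the 73, beside 35.7% of all genes tested. After quantile normalization 26 rose and 4 fell, beside 21.1% and 25.1% of all genes. The median log2 fold change over the 73 was 1.27, and 1.13 without calf 3.

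Of 26 partners at the centromere and kinetochore 14 rose, with and without calf 3, or 53.8% beside 35.7% of all genes. With quantile normalization 11 rose and 0 fell, beside 21.1% and 25.1% of all genes. The largest differences were those of HASPIN, the kinase of histone H3 that recruits the passenger complex, KIF2C, a microtubule-depolymerizing kinesin, and KNSTRN, a spindle protein. HASPIN was at 1.44, 1.77 and 0.261 FPKM in the calves and at 74.5, 93.7 and 99.3 FPKM in the bulls (5.45, adjusted p = 5.19e-05). KIF2C was at 3.76, 2.17 and 0.272 FPKM against 70.5, 66.2 and 74.9 FPKM (4.74), and KNSTRN at 13.1, 8.55 and 3.68 FPKM against 239, 192 and 211 FPKM (4.64). Without calf 3 the log2 fold changes of the 3 genes were 5.11, 4.20 and 4.20. CENPA and its chaperone HJURP, named after their values were seen, did not pass. CENPA was at 2.29, 0.942 and 0.264 FPKM in the calves and at 1.47, 1.08 and 1.59 FPKM in the bulls (0.24, adjusted p = 0.593), within the range of calves 1 and 2. HJURP was at 3.77, 1.13 and 0.209 FPKM against 1.99, 2.53 and 2.53 FPKM (0.53, adjusted p = 0.391). Without calf 3 they were at −0.09 and 0.07.

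Of 21 genes of the anaphase-promoting complex and of separase 12 rose, or 57.1% beside 35.7% of all genes. Without calf 3, 13 rose, or 61.9% beside 37.9%. With quantile normalization 6 rose and 0 fell, beside 21.1% and 25.1% of all genes. PTTG1, which encodes securin, the inhibitor of separase, was at 6.33, 4.25 and 0.196 FPKM in the calves and at 108, 130 and 95.1 FPKM in the bulls (4.95, adjusted p = 0.00131). UBE2C, the ubiquitin-conjugating enzyme of the complex, was at 5.85, 2.34 and 0.411 FPKM against 23.1, 19.6 and 21.4 FPKM (2.81), and ESPL1, separase itself, at 1.53, 1.27 and 0.200 FPKM against 12.8, 10.3 and 9.33 FPKM (2.63). Without calf 3 they were at 4.16, 2.22 and 2.29. Of 26 partners of the Aurora and Polo kinases and spindle assembly genes 15 rose, with and without calf 3. That is 57.7%, beside 35.7% of all genes, or 37.9% without calf 3. With quantile normalization 9 rose and 4 fell, beside 21.1% and 25.1% of all genes. NEK2, a centrosomal kinase, was at 4.75, 3.67 and 0.348 FPKM against 97.8, 80.98 and 77.7 FPKM (4.70, adjusted p = 0.000704), while TACC3 and PRC1, proteins that cross-link spindle microtubules, had log2 fold changes of 3.25 and 3.23. Without calf 3 those of NEK2, TACC3 and PRC1 were 4.05, 2.97 and 2.81.

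Summed markers of mitotic cells, spermatocytes and spermatids were higher in the bulls, as were most of these genes. The 12 markers of mitotic cells summed to 144, 118 and 26.9 FPKM in the calves and to 352, 367 and 325 FPKM in the bulls. Of them 8 rose, or 66.7% beside 35.7% of all genes, and 7 without calf 3, or 58.3% beside 37.9%. After quantile normalization only 3 of the 12 rose, with and without calf 3, beside 21.1% and 22.4% of all genes. MKI67, the usual marker of proliferation, was at 2.06, 1.13 and 0.276 FPKM against 2.91, 2.56 and 4.03 FPKM (log2 fold change 1.02, adjusted p = 0.0468), and it was not called without calf 3 (0.69, adjusted p = 0.034). The 10 spermatocyte markers summed to 38.1, 52.1 and 3.96 FPKM in the calves and to 312, 344 and 298 FPKM in the bulls. Of the 10 spermatogonium markers 3 were called higher and 1 lower, with a median log2 fold change of −0.11. These shares of 30% and 10% lay near the 35.7% and 9.61% of all genes tested. Without calf 3, 3 were higher and 2 lower, beside 37.9% and 13.6% of all genes, with a median of −0.013. The 10 markers summed to 130, 170 and 285 FPKM in the calves and 313, 317 and 307 FPKM in the bulls. Calf 3 had the highest sum of the calves, but it was the lowest calf in 6 of the 10 markers and the highest in 4. Its level relative to the mean of calves 1 and 2 had a median of 0.435 over the 10. The 9 markers of round spermatids summed to at most 10.4 FPKM in a calf and to at least 934 FPKM in a bull, and the 10 of elongating spermatids to 10.1 to 13.02 FPKM against 15473 to 17217 FPKM. Their part in the results above was not tested.

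The loci of 18 of the 47 genes overlap another annotated locus, among them PMF1 with BGLAP and PAQR6, PLK1 with ERN2, CENPX with LRRC45 and ASPSCR1, and CENPO with ADCY3. The libraries keep the strand, but the setting used in counting is not given in the sources used here, so reads of such neighbours may be divided between the genes.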

How the data were processed

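Testis RNA of 3 calves and 3 bulls was measured, 1 library per animal, and groups and numbers were taken from the sample titles. By their Methods the authors filtered reads, removed ribosomal reads with Bowtie2, aligned those left by TopHat2 and built transcripts in StringTie. The deposited tables hold FPKM values of genes and transcripts made by the authors, without counts, so the depth behind a value is unknown and no counting interval is given. The tool behind the gene FPKM values is not given in the sources used here. The Methods name the UMD build, but the scaffold names in the tables belong to ARS-UCD, so positions are those of the tables.

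Values were taken as log2(FPKM + 1), features with 1 FPKM in at least 3 libraries were kept, and groups were compared with limma 3.58.1 (R 4.3.3, moderated with a trend), with the Benjamini-Hochberg adjustment made across every feature kept. Features were called at an adjusted p under 0.05 together with an absolute log2 difference of 1 or more. A fold change on this scale understates the change of low genes. Steps were tested on simulated data. Figures were drawn with matplotlib 3.10.9. The genes, roles, pathway and marker lists were chosen with earlier results of these data known. Genes given by library are, per role, the 4 called with the largest difference and the one with the smallest, those called lower or changed by calf 3, and the kinase and BUB families. From each pathway list the 3 called with the largest difference were taken, and other names were added after their values were seen. Alternatives were other scalings, filters, pseudocounts, leaving out a library, array weights and a replicate block. No sequence is shown because none was given with the files.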

Additional observations from a re-analysis of the deposited data

How the results depend on the processing

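Leaving out 1 library at a time gave 29 to 37 of the 47 genes as higher (37 without calf 1, 29 without bull 2). It gave 1 to 2 as lower (2 without calf 1 or calf 2, with PLK3 added, which passed the filter through the calves alone). Of all genes tested, 33.3% to 37.9% were then higher and 6.72% to 13.6% lower. Against 1 lower gene beside 9.61% of all genes, there were 2 with a pseudocount of 0.1 (beside 12.2%) and 2 with median ratio scaling (13.6%). There were 3 after quantile normalization (25.1%) and 5 after quantile normalization without calf 3 (29.1%). PLK3 is among the lower genes in each of these settings, and its calls are not read as a fall. With no minimum fold there were 3, and the share over all genes is not given here. For transcripts 1 to 2 were lower with a library left out (2 without calf 1 or calf 2), 2 with a pseudocount of 0.1, 2 with median ratio scaling, 4 after quantile normalization, 6 with that and without calf 3, and 2 with no minimum fold. Transcripts called higher came to 31 after quantile normalization and 27 with that and without calf 3. The shares over all transcripts after quantile normalization are not given here, so these counts cannot be set against them. The other pathway genes came to 26 higher and 4 lower after quantile normalization, beside 21.1% and 25.1% of all genes. With that and without calf 3 they came to 23 higher and 5 lower, beside 22.4% and 29.1%. With no minimum fold 1 was lower.

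Direction turned in genes that were not called with all libraries and no normalization. After quantile normalization without calf 3 the log2 fold change was −0.012 for CENPC, −0.048 for CENPP, −0.049 for CENPS, −0.25 for DSN1 and −0.026 for AURKB. MIS12 ranged from −0.13 (without bull 2) to 0.042 (without calf 3) over the libraries left out, with 0.0096 without bull 1 and 0.0043 without bull 3, and came to 0.056 with array weights. Over the libraries left out PLK2 ranged from −0.44 (without calf 3) to 0.0070 (without calf 1), and it was −1.05 and called lower after quantile normalization without calf 3. No called gene of the 47 turned its direction in any setting run, and the cause of these turns was not tested. With a replicate block 33 genes were higher and 1 was lower, beside 35.5% and 9.33% of all genes, and no call among the 47 changed. In that setting 45 transcripts and 40 pathway genes were higher. The correlations of deviations between same-numbered calves and bulls were 0.0277, 0.0246 and 0.0341. Each library correlated best with its own number, as a hint from the data and not the design. These small values cannot show whether same-numbered libraries share a step of handling, and the labels state no pairing. Without counts, what depth limits cannot be given. The p-values measure the spread between 3 libraries per group, each from another animal.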
